A study of Mus musculus with 9 samples.

Results

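The small leucine-rich proteoglycans are secreted matrix proteins, and 10 of their genes were followed here in mouse adipose stromal cultures: Dcn, Bgn, Aspn, Lum, Fmod, Kera, Prelp, Omd, Ogn and Podn. They were taken by name from 19938 different genes that the array annotation names alone, and each of the 10 had 1 row. No rule on their values was used, but earlier results of these data were known when they were chosen. The cells were the stromal vascular fraction (SVF) of subcutaneous fat of C57BL6/J mice aged 10 weeks, grown in the same minimal serum medium with no inducing factor. On day 28, the beating group (4 samples) held the hand-picked colonies that contracted spontaneously, and the non-beating group (4 samples) held the other cells of the dish. A further sample was 1 pool of 6 round cells, picked on day 14. Each beating sample combined the colonies of more than 1 dish of the same SVF lot.

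Proteins of this family have a core of leucine-rich repeats and bind to collagen fibrils, whose diameter and spacing they help to set in skin, tendon and cornea. Many carry chains of chondroitin, dermatan or keratan sulfate, sugars that hold water. Several also bind growth factors of the TGF-beta family or their receptors, and they are typical products of fibroblasts. Class I holds decorin (Dcn), biglycan (Bgn) and asporin (Aspn). Class II holds lumican (Lum), fibromodulin (Fmod), keratocan (Kera), Prelp and osteomodulin (Omd). Osteoglycin, or mimecan (Ogn), is of class III, and podocan (Podn) is of class V.

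Most of these genes lie beside each other in the mouse genome. In the RefSeq annotation of GRCm38, Dcn, Lum, Kera and the family gene Epyc span 202.4 kb of chromosome 10, from 97479500 to 97681908. Ecm2, Aspn, Omd and Ogn span 119.7 kb of chromosome 13, from 49504810 to 49624501. Optc, Prelp and Fmod span 151.1 kb of chromosome 1, from 133897193 to 134048280. Podn lies on chromosome 4 from 108014793 to 108031954, and Bgn on chromosome X from 73483601 to 73495936.

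The promoters of Prelp, Bgn and Ogn are shown because these genes span the range of responses described below, and they were chosen after the values were seen. RefSeq (GRCm38.p6) gave promoters of 8 of the 10 genes, 9 entries in all, each of 300 bases with 250 before the start of the entry's transcript and 50 after it. Capitals mark matches to the E-box motif (CANNTG), the core promoter motif of TBP (TATAAA) and the AP-1 motif (TGANTCA). The search for TATAAA covered both strands, and the other motifs read the same on either strand. The coordinates are chr1:133921352-133921651 on the minus strand for Prelp, chrX:73483351-73483650 on the plus strand for Bgn and chr13:49607765-49608064 on the plus strand for Ogn. The Prelp entry lies inside the gene, which spans 133910304 to 133930102. It belongs to an internal transcript start, not to the outermost start of the gene.
Prelp: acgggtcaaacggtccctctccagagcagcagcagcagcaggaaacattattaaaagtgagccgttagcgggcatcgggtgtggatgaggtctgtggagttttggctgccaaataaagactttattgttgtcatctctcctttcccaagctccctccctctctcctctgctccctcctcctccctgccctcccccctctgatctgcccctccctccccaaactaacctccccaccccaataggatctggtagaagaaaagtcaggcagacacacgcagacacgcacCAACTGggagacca
Bgn: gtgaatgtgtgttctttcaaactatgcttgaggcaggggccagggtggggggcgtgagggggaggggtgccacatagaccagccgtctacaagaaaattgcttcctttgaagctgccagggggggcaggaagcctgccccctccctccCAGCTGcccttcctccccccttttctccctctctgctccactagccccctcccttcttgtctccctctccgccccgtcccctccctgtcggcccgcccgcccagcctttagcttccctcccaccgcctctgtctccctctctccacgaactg
Ogn: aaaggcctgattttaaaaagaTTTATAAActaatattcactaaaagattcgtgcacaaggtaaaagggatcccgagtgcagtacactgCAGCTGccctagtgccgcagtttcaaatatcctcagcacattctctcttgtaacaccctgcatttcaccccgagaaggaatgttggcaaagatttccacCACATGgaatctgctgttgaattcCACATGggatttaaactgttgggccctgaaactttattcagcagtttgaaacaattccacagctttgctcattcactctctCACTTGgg
Ogn held 4 E-box matches and 2 TATAAA matches, which overlap each other on opposite strands, while Prelp and Bgn held 1 E-box match each. Over the 9 entries, 7 held CANNTG, 2 held TATAAA and 0 held TGANTCA. Among 32851 promoters of this length, 72.3% held CANNTG, 13.6% TATAAA and 7.81% TGANTCA.

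All values are log2 signals of Affymetrix Mouse Gene 1.0 ST arrays, used as deposited. The signals include background, so a fold is a ratio of signals, and the 8 arrays of day 28 had medians from 3.08 to 3.17. Levels of different genes were not set against each other, because each gene has its own probes. The beating and non-beating groups were compared by limma's moderated test over 33323 transcript clusters, each a group of probes that reads a gene or a piece of it. The p-values were two-sided and Benjamini-Hochberg adjusted over all clusters, with a threshold of 0.05. Whether the samples within a group derive from different cell lots is not given in the sources used here, so the p-values measure only the spread between these samples, which may be technical.

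Dcn and Prelp fell in the beating samples, and no gene of the 10 rose. The other 8 did not pass the test over all clusters. As a background, 6.16% of all clusters were called, 3.34% lower and 2.82% higher, and of the 16661 clusters above the median level 6.54% were called lower. The median log2 difference of the 10 genes was -0.53, against 0.007 over all clusters, and 9 of the 10 differences were negative, as were 48.1% of all. In 5 of the 10 (Dcn, Prelp, Bgn, Omd and Fmod) every beating array lay below every non-beating array, as it did for 8.24% of all clusters and for 15.5% of those above the median level. In 0 of the 10 did every beating array lie above (5.98% of all clusters). At an unadjusted p under 0.05, 7 of the 10 were lower, as were 12.0% of all clusters and 22.0% of those above the median level.

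Prelp, which encodes a protein that anchors basement membranes to connective tissue, showed the largest difference of the 10. Its log2 signals were 8.28, 8.09, 8.48 and 8.48 in the 4 beating samples and 10.41, 9.79, 10.12 and 9.68 in the 4 non-beating samples. The groups were well apart, with 1.192 between the highest beating and the lowest non-beating array. Prelp (Entrez Gene 116847) was 3.17-fold lower in beating samples (log2 difference -1.66, standard error 0.17, 95% interval -2.06 to -1.27, adjusted p = 0.00141).

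Dcn encodes decorin, which coats collagen I fibrils and binds TGF-beta. The log2 signals of Dcn were 9.89, 10.03, 9.69 and 10.23 in beating samples against 11.32, 11.15, 11.22 and 10.82 in non-beating samples. All 4 beating arrays were below all 4 non-beating arrays. This 2.24-fold lower signal of Dcn (Entrez Gene 13179) passed the test (log2 difference -1.17, standard error 0.14, 95% interval -1.50 to -0.84, adjusted p = 0.00352). The calls of Prelp and Dcn held under all 16 alternative settings, with adjusted p up to 0.0142 and 0.0374. A stricter rule modelled on the study's methods, a two-sample test with an unadjusted threshold of 0.0001 after a 1.5-fold prefilter, called 221 of 7976 clusters and none of the 10 genes.

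**Figure D1:**
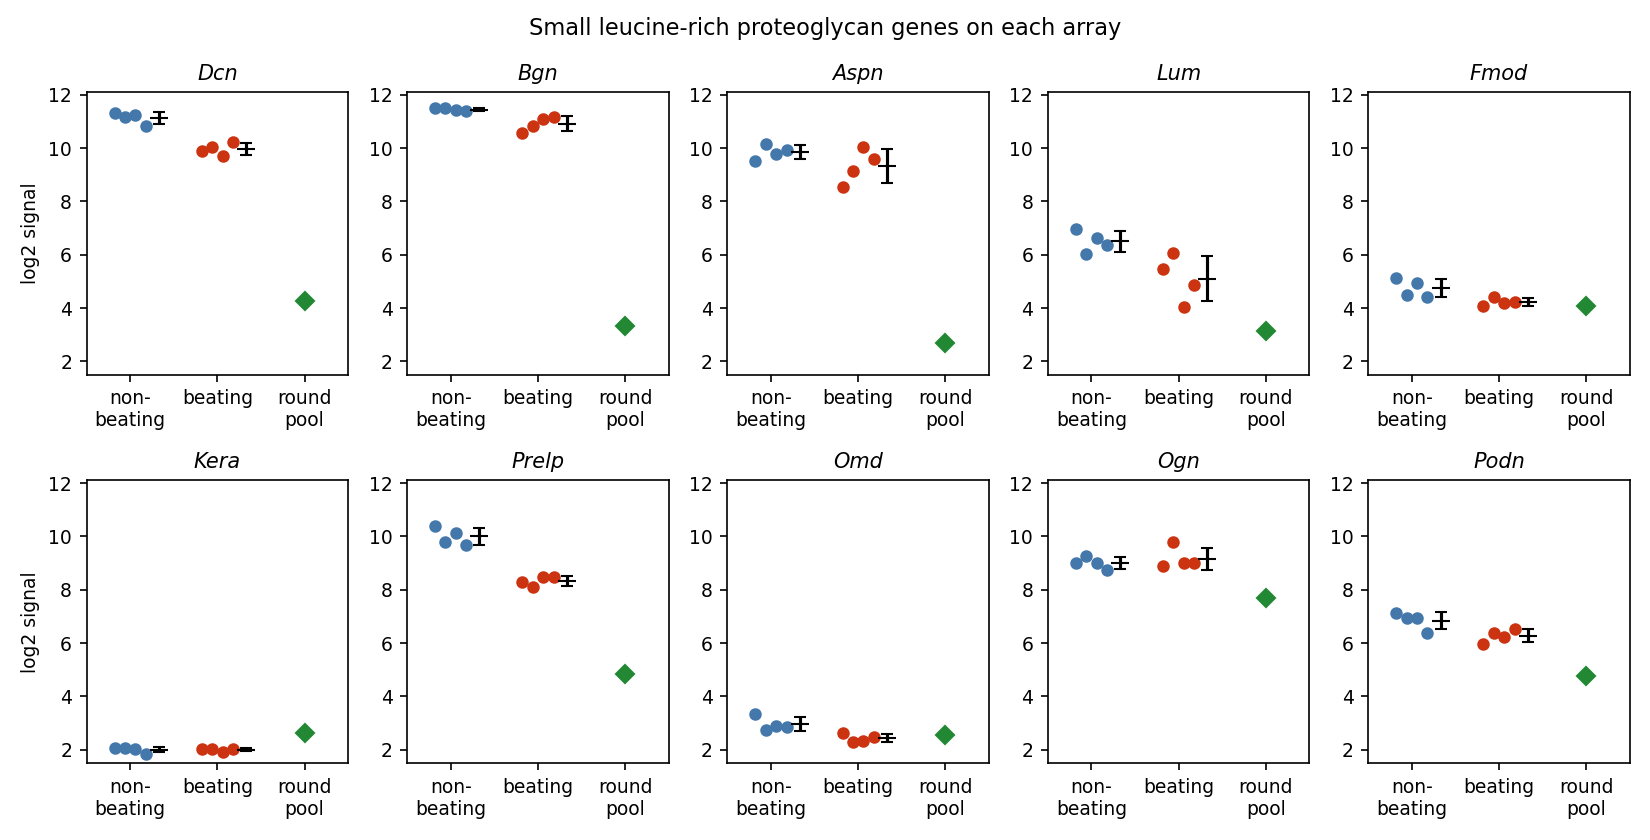
Log2 signal of the 10 proteoglycan genes on each array: non-beating (blue, n = 4), beating (red, n = 4) and the round cell pool (green, 1 array). Black bars give the group mean with its SD. Prelp and Dcn separate the day 28 groups most widely, Ogn overlaps, and in the round pool Dcn, Bgn and Aspn lie at 4.27, 3.32 and 2.69.

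Markers of other cell types were taken as the mean log2 signal of each marker list on each array. The 10 fibroblast and mesenchymal markers averaged 6.86 to 7.41 in beating and 7.62 to 8.20 in non-beating samples, with Thy1 and Pdgfra lower and 8 not called. The list was mixed: 7 of the 10 log2 differences were negative, while those of Col1a1, Vim and Col1a2 were 0.46, 0.15 and 0.04. Pdgfra lost its call without 2 of the 8 arrays (limma adjusted p up to 0.0557). All 10 of these markers had a mean above the median level of the array's clusters. The 8 striated muscle markers averaged 9.55 to 9.80 in beating and 3.94 to 4.38 in non-beating samples, with 7 higher. The 7 adipocyte markers averaged 4.20 to 4.61 against 5.14 to 5.45, with Lpl, Adipoq and Pparg lower and 4 not called, and Adipoq and Pparg lost their calls without 3 and 4 of the 8 arrays. The 7 macrophage markers averaged 3.53 to 5.47 against 5.49 to 7.12, with Mpeg1 lower and 6 not called. Mpeg1 lost its call without 7 of the 8 arrays. At limma's unadjusted p under 0.05, all 7 macrophage markers were lower (median log2 difference -1.77). So were 6 of the 10 fibroblast and mesenchymal markers and 4 of the 7 adipocyte markers. Lower at that threshold were 12.0% of all clusters and 22.0% of those above the median level. The part of these marker differences in the levels of the proteoglycan genes was not tested, and which cells held their RNA was not measured. In such mixed samples a smaller share of the cells that express these genes and less RNA per such cell cannot be told apart.

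Bgn, the other chondroitin and dermatan sulfate proteoglycan of class I, had a smaller difference than Dcn. Beating samples had log2 signals of 10.55, 10.84, 11.10 and 11.17, and non-beating samples 11.49, 11.50, 11.41 and 11.37. The non-beating arrays were nearly equal (SD 0.064), and the beating arrays were all lower and more spread (SD 0.28). The log2 difference was -0.53 (95% interval -0.83 to -0.22, adjusted p = 0.0591), or 1.44-fold. It passed the threshold without beating replicate 4 (adjusted p = 0.0409), after median centring (0.0413) and with dim clusters left out (0.0356), and not under the other 13 settings.

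Aspn encodes asporin, which binds collagen and TGF-beta and inhibits its signal. In beating samples its log2 signals were 8.54, 9.14, 10.05 and 9.57, and in non-beating samples they were 9.50, 10.15, 9.79 and 9.93. The groups overlapped, with beating replicates 1 and 2 below every non-beating array and replicates 3 and 4 among them. The difference of -0.52 had a 95% interval from -1.22 to 0.19 (limma, adjusted p = 0.396). Beating replicates 1 and 2 were also the lowest of their group for Bgn.

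Among the class II genes, Lum had the widest spread within a group. Lumican is a keratan sulfate proteoglycan of cornea and skin that also occurs in fibrous tissue. Its log2 signals were 5.46, 6.05, 4.05 and 4.86 in beating and 6.98, 6.03, 6.63 and 6.37 in non-beating samples. The groups met at a single pair of arrays, beating replicate 2 (6.05) and non-beating replicate 2 (6.03). The difference of -1.40, or 2.64-fold, had a standard error of 0.41 and a 95% interval from -2.35 to -0.45 (limma, adjusted p = 0.0948). It was called with the 1.5-fold prefilter (adjusted p = 0.0191) and with array weights (0.0481).

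Fmod encodes fibromodulin, a regulator of collagen fibril assembly in tendon. Fmod signals (log2) were 4.07, 4.41, 4.17 and 4.23 in beating and 5.11, 4.50, 4.93 and 4.43 in non-beating samples, without overlap but with a gap of only 0.026 between the groups. The difference was -0.52 (95% interval -0.90 to -0.15, limma adjusted p = 0.108), and it was called under 0 of the 16 alternatives.

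Omd and Kera were dim, with means over the 8 arrays below 3.12, the median level of all clusters. Osteomodulin (Omd), best known from bone, was at 2.63, 2.31, 2.33 and 2.48 in beating and at 3.34, 2.76, 2.90 and 2.85 in non-beating samples (log2 signal). Every beating array was below every non-beating array. The difference was -0.53 (95% interval -0.84 to -0.21, limma adjusted p = 0.0652), and it passed after median centring (0.041), after quantile normalization (0.0457) and with a replicate block (0.0426). Keratocan (Kera), a proteoglycan of the cornea, lay between 1.86 and 2.06 on all 8 arrays, near the bottom of the array's range. Its groups overlapped, and the 95% interval of its difference was -0.15 to 0.15 (limma, adjusted p = 0.994).

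Ogn was the only gene of the 10 with a higher mean in beating samples. Osteoglycin is secreted by fibroblasts, muscle and bone cells, and it was first known from bone. Its log2 signals were 8.89, 9.78, 8.99 and 9.02 in beating and 9.02, 9.28, 9.02 and 8.74 in non-beating samples. The groups overlapped almost wholly, and 3 of the 8 arrays held an identical value. The difference was 0.16 (standard error 0.21, 95% interval -0.32 to 0.63, limma adjusted p = 0.735). The interval excludes a fall of the size seen for Dcn or Prelp. Without beating replicate 2, the highest array, the difference was -0.047 (adjusted p = 0.877).

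Podn encodes podocan, a matrix protein known from the kidney and the vessel wall. Podn signals (log2) were 5.97, 6.39, 6.23 and 6.52 in beating and 7.13, 6.93, 6.93 and 6.37 in non-beating samples. Non-beating replicate 4 was the lowest of its group and lay among the beating arrays. The difference was -0.56 (95% interval -0.98 to -0.15, adjusted p = 0.119 by limma), and it was -0.72 (adjusted p = 0.0382) without non-beating replicate 4.

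**Figure D2:**
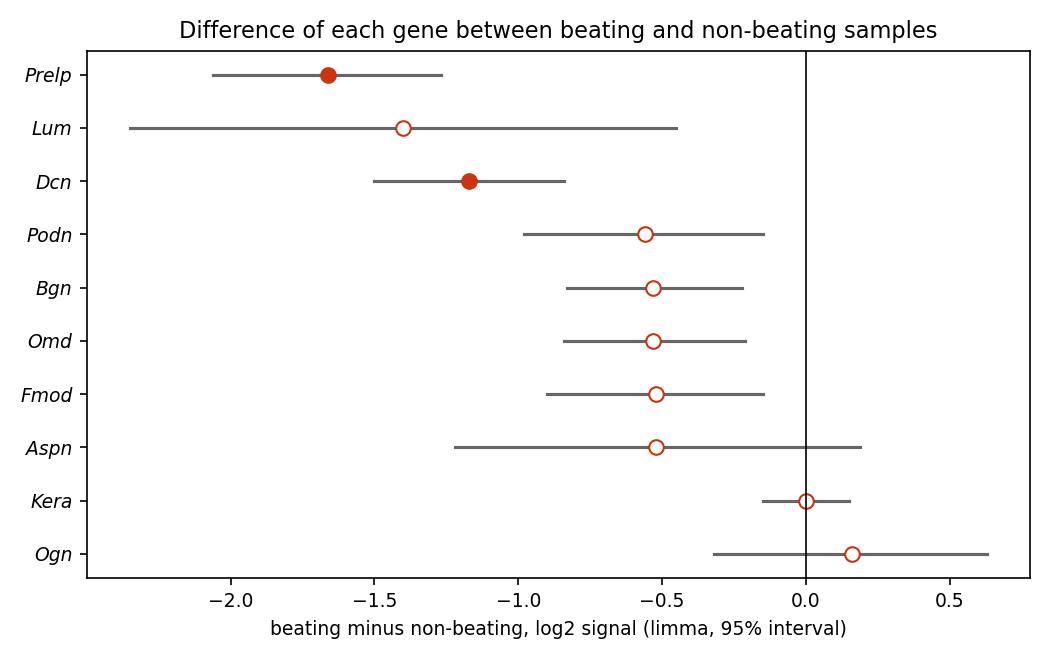
Beating minus non-beating log2 signal of each proteoglycan gene with its 95% interval from limma (n = 4 each). Filled points passed the adjusted threshold of 0.05: Prelp at -1.66 and Dcn at -1.17. Podn, Bgn, Omd, Fmod and Aspn lie between -0.56 and -0.52.

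Whether genes that are neighbours or of the same class differed in their change was tested on 9 pairs, as the difference of the 2 log2 signals within each array. In an exact two-sided permutation test of 4 against 4 arrays, 0 of the 9 pairs passed after Benjamini-Hochberg adjustment, and 3 had an unadjusted p of 0.0286, the smallest the design allows. These 3 were Fmod and Prelp, Dcn and Bgn, and Omd and Kera. Fmod minus Prelp came to -4.12 ± 0.29 (beating) and -5.25 ± 0.05 (non-beating, mean and SD of 4 arrays), a difference in change of 1.14 on the log2 scale (exact permutation test, adjusted p = 0.0857). Dcn minus Bgn was -0.95 ± 0.32 and -0.32 ± 0.17, a difference of -0.64 (exact permutation test, adjusted p = 0.0857). Ogn and its neighbours gave 0.68 against Omd and 0.67 against Aspn (exact permutation tests, adjusted p = 0.0857 and 0.257). Lum gave -0.87 against Fmod (exact permutation test, adjusted p = 0.0857). The pairs of Kera with Omd (-0.52) and with Lum (-1.40) restate the differences of Omd and Lum, since Kera lay near the bottom of the array's range and was flat. The remaining pairs gave small differences, 0.23 for Dcn and Lum and -0.01 for Bgn and Aspn (exact permutation tests, adjusted p = 0.707 and 0.914).

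The genes whose profile over the 8 arrays was most like that of a called gene were sought among 19928 others, by the root mean square distance of values centred on their own mean. For Dcn they were Vcam1, an adhesion molecule for leukocytes, Nfia, a transcription factor, and Clmp, an adhesion protein, at distances of 0.095, 0.127 and 0.144 on the log2 scale. For Prelp they were Htr2a, a serotonin receptor, Lbp, which binds lipopolysaccharide, and Pmp22, a membrane protein of myelin, at 0.134, 0.163 and 0.186. All 6 were lower in beating samples, as the measure itself makes likely, with log2 differences of -1.16, -1.05, -1.27, -1.48, -1.75 and -1.49.

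Of 7 other family genes measured, 0 passed limma's test, 2 were lower at an unadjusted p under 0.05 (12.0% of all clusters), and the two-sample test, once adjusted, called 0 as well. Optc, or opticin, which lies beside Prelp and is known from the vitreous of the eye, averaged 2.72 ± 0.20 among beating and 3.17 ± 0.15 among non-beating samples (log2 signal, SD, n = 4 each, limma adjusted p = 0.0631). Ecm2, which lies beside Aspn, was at 3.35 ± 0.44 and 3.82 ± 0.32 (limma adjusted p = 0.324). Epyc, or epiphycan, a cartilage gene beside Kera, was dim, at 2.27 ± 0.080 and 2.26 ± 0.030.

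The enzymes that build the sugar chains were mostly not called. Of 36 such genes, 2 were lower, 0 higher and 34 not called, with a median log2 difference of -0.25, and 16 were lower at an unadjusted p under 0.05, a threshold met by 12.0% of all clusters and by 22.0% of those above the median level. Of the 36, 32 were above that level. After adjustment, 3.34% of all clusters and 6.54% of those above the median level were called lower. Dsel, related to the epimerase that makes dermatan sulfate, had log2 signals of 5.96 ± 0.17 (beating) and 6.80 ± 0.15 (non-beating), with n = 4 and the SD after each mean, 1.80-fold lower (limma adjusted p = 0.00441). Chst12, a chondroitin 4-O-sulfotransferase, was 1.64-fold lower (limma adjusted p = 0.0132). Csgalnact1, which starts the chondroitin chain, was at 6.78 ± 0.62 and 7.85 ± 0.16 (limma adjusted p = 0.068). The count rose to 4 lower without beating replicate 4 and without non-beating replicate 4.

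Of 16 proteases and helpers that process or cleave these core proteins, 2 were lower and 14 not called (median log2 difference -0.39). Of all clusters 3.34% were called lower, and of those above the median level, where 12 of the 16 lay, 6.54%. At limma's unadjusted p under 0.05, 5 were lower, as were 12.0% of all clusters and 22.0% of those above the median level. Mmp12, the macrophage elastase, averaged 5.58 ± 0.35 among beating and 7.60 ± 0.83 among non-beating samples (log2 signal, SD, n = 4 each, limma adjusted p = 0.0246). Adamts5, an aggrecanase, was at 9.26 ± 0.39 and 10.26 ± 0.36 (limma adjusted p = 0.0471). Neither call was stable: leaving out beating replicate 1, 2 or 3, or non-beating replicate 1 or 2, brought the count to 0, and leaving out beating replicate 4 or non-beating replicate 3 brought it to 1. Adamts5 lost its call without any of the 8 arrays (adjusted p up to 0.123) and Mmp12 without 5 of them (up to 0.0804). The macrophage markers moved with Mmp12, at the list means given above, and their part in its difference was not tested.

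The collagens that these proteins bind were mostly not called. Of 18 fibril collagen and cross-linking genes, Col14a1 was lower and 17 were not called (median log2 difference -0.17). Of all clusters 3.34% were called lower, and of those above the median level, where all 18 lay, 6.54%. At limma's unadjusted p under 0.05, 5 were lower, as were 12.0% of all clusters and 22.0% of those above the median level. Col14a1, a collagen of the fibril surface, had log2 signals of 5.49 ± 0.25 (beating) and 6.93 ± 0.48 (non-beating), with n = 4 and the SD after each mean, 2.72-fold lower (limma adjusted p = 0.0127). Col1a1 and Col1a2, the chains of the main fibril collagen, were at 7.74 ± 0.57 and 7.60 ± 0.61 in beating against 7.28 ± 0.17 and 7.55 ± 0.26 in non-beating samples (limma adjusted p = 0.371 and 0.954). Lox, a collagen cross-linking enzyme, was at 10.00 ± 0.40 and 10.66 ± 0.10 (limma adjusted p = 0.0838). Without beating replicate 4 the count of called genes was 2.

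Ligands and receptors of the pathways that family members touch moved both ways. Of 29 such genes, 5 were lower, 2 higher and 22 not called (median log2 difference -0.31). Of all clusters 3.34% were called lower and 2.82% higher. Above the median level, where 28 of the 29 lay, 6.54% were called lower. At limma's unadjusted p under 0.05, 10 were lower and 2 higher. Lower at that threshold were 12.0% of all clusters and 22.0% of those above the median level. Tgfbr3, or betaglycan, a co-receptor of TGF-beta, had log2 signals of 6.20 ± 0.44 (beating) and 7.85 ± 0.34 (non-beating), with n = 4 and the SD after each mean, 3.13-fold lower (limma adjusted p = 0.00835). Tlr4 and P2rx4, among the receptors through which soluble biglycan signals in macrophages, fell by 0.90 each on the log2 scale (limma adjusted p = 0.00636 and 0.00124). Tlr2 and P2rx7 of the same list were not called, with log2 differences of -0.31 and -0.05 (limma adjusted p = 0.349 and 0.746). Neither were Cd14 and Cd44, at -1.03 and -0.60 (limma adjusted p = 0.218 and 0.102). Egfr and Lrp6, the other lower genes, fell by 0.84 and 0.53 (limma adjusted p = 0.0121 and 0.049). Tgfb3 and Tgfb2, ligands of TGF-beta receptors, rose by 0.70 and 0.84 (limma adjusted p = 0.00501 and 0.0418). Lrp6 lost its call without any array but beating replicate 4, and Tgfb2 without any but beating replicate 3 (adjusted p up to 0.115 and 0.113).

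**Figure D3:**
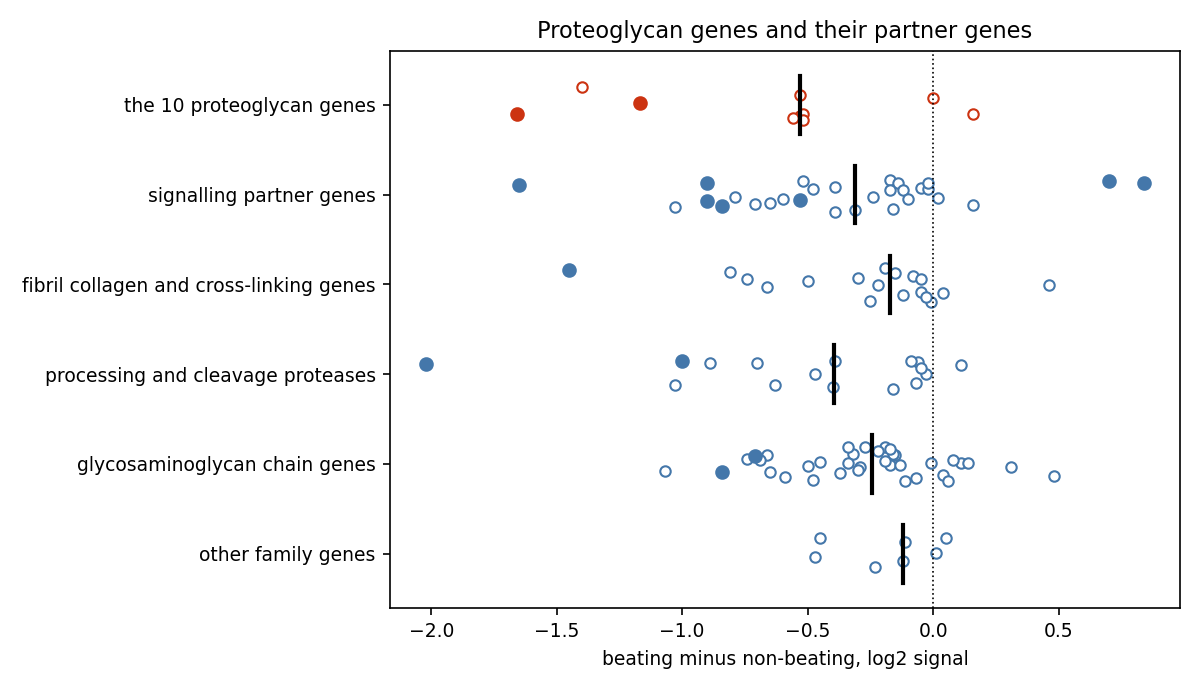
Beating minus non-beating log2 signal of the 10 proteoglycan genes (red) and of 5 lists of partner genes (blue), 1 point per gene, with black bars at the list medians. Filled points passed limma's adjusted threshold of 0.05. The medians run from -0.53 for the proteoglycan genes to -0.12 for the other family genes.

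In the round cell pool, Bgn, Aspn, Dcn and Prelp had far lower signals than on day 28, while Ogn and the dimmer family genes lay closer to their day 28 levels. The pool is 1 sample without replicate, from another day and very few cells, so no error or test can be given. Of the 10 genes, 8 lay below all 8 day 28 arrays, as did 24.4% of all clusters, and 1 lay above all 8, as did 46.4%. These shares depend on level. When the clusters were divided by level into 4 classes of equal size, 7 of the 10 genes fell in the brightest class, where 72.7% lay below all 8 arrays and the median distance from the non-beating mean was -1.29.

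Bgn was at 3.32 in the round pool, a log2 difference of -8.12 from the non-beating mean of 11.44. Within the brightest class, 0.06% of clusters, 5 of 8331, lay as far below or further. Aspn was at 2.69 (-7.15 from the non-beating mean, as low as 0.24% of that class), Dcn at 4.27 (-6.86, 0.384%) and Prelp at 4.83 (-5.17, 2.42%). Lum at 3.15 and Podn at 4.77 lay closer, at -3.35 (13.2%) and -2.07 (32.3%). Bgn, Aspn and Lum were below 3.54, the median of the round array, and Aspn was also below its lower quartile of 2.72. At such dim levels background may limit the distances of these 3 genes, so their order there says little. Ogn, at 7.70, was -1.31 from its non-beating mean of 9.01, as low as 49.4% of the class.

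The dimmer genes lay nearer to their day 28 levels in the round pool. Fmod was at 4.06, just below the day 28 range, which began at 4.07, and 14.1% of its level class lay as far below the non-beating mean or further. Omd was at 2.56, inside the range of the beating arrays and as low as 3.43% of its class, and after median centring or quantile normalization of the 9 arrays it was below all 8. Kera, at 2.64, was above all 8 arrays, as were 62.9% of clusters in the dimmest class. The 10 fibroblast and mesenchymal markers averaged 5.14 in the round pool and the 8 striated muscle markers 10.09, and the part of either in the proteoglycan levels was not tested.

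**Figure D4:**
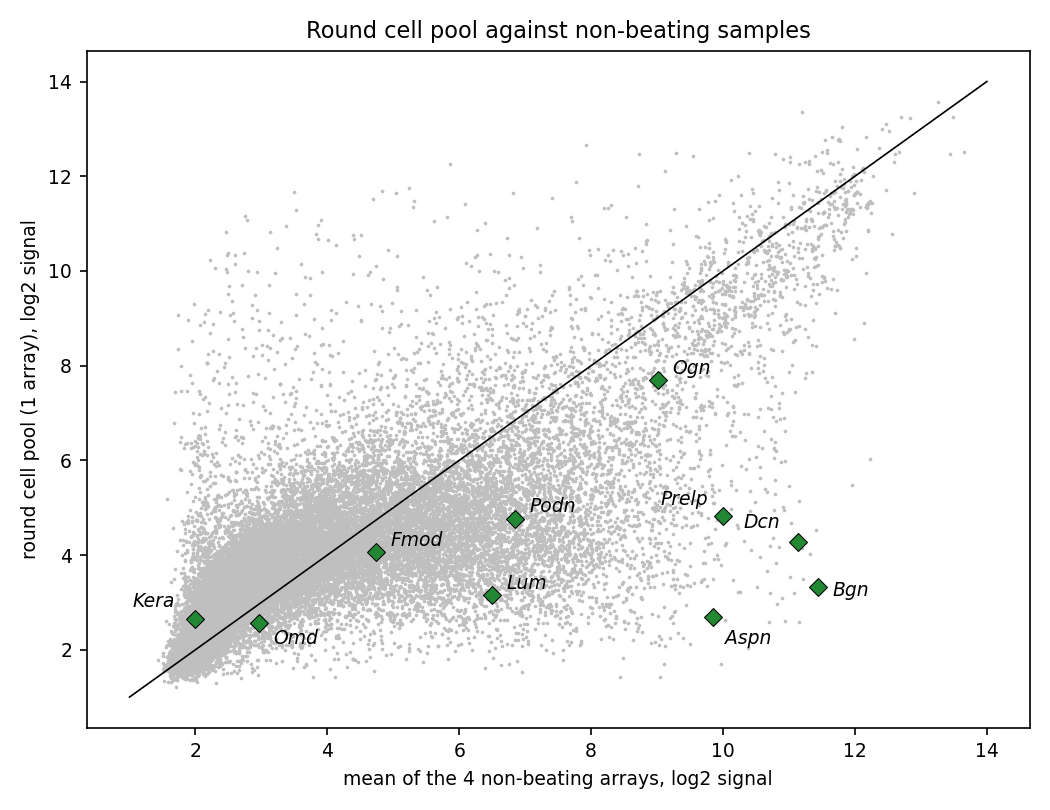
Log2 signal in the round cell pool (1 array) against the mean of the 4 non-beating arrays, for all 33323 clusters (grey) and the 10 proteoglycan genes (green), with the line of equal signal. Bgn, Aspn, Dcn and Prelp lie far below the line, and Ogn lies at 7.70 against 9.01.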

How the data were processed

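RNA of 4 beating, 4 non-beating and 1 round cell sample was amplified (Ovation Pico WTA), labelled with biotin and hybridised to Affymetrix arrays (Mouse Gene 1.0 ST). The paper names different extraction kits for picked colonies (NucleoSpin RNA XS) and for unselected cells (ISOSPIN Cell & Tissue RNA). If the unselected cells are the non-beating samples, kit and way of collection cannot be told apart from the beating group. The authors processed the raw data in BRB-ArrayTools with log2 scaling, normalisation and mean centring; the deposited table holds log2 signals for 33323 transcript clusters, and how they were summarised is not given in the sources used here. Of the clusters, 21789 carry 1 gene symbol, and 21698 of these were named through the gene number (RefSeq, GRCm38.p6). A gene with several clusters was represented by the one with the highest mean over the 8 arrays. Groups were tested on the log2 values without a block (limma 3.58.1 under R 4.3.3, functions lmFit and eBayes). No label says that replicate numbers pair the samples, and same-numbered samples did not deviate together. This cannot show that pairing is absent. The non-beating cells were the other cells of the dish, so lots may be shared between the groups.

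The members and lists were chosen with earlier results of these data known. Named genes were the 10 members, the called genes of each partner list (at most 3 in each direction) and the 3 genes nearest to each called member. Tlr4, P2rx4, Egfr and Lrp6 follow Tgfbr3 in size, and Lrp6 and Egfr go beyond that rule. Other genes named were chosen after their values were seen. On simulated data with 33323 clusters, limma recovered 70 of 100 clusters lowered by 1 on the log2 scale and 91 of 100 lowered by 2, with 7 false calls. The noise was independent and normal, and the lowered clusters were all above the median level. The recovery of smaller differences, or of dim genes such as Omd and Kera, was not simulated. The alternatives were 2 scalings, 2 filters, a variance trend, array weights, the two-sample test of the methods, a replicate block and leaving out each of the 8 arrays. The number of arrays limits the precision. Tsku and Loxl2 had no cluster of their own name alone and were not analysed here.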

Additional observations from a re-analysis of the deposited data

Results flagged for a closer look

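In 3 of the 20 groups of 4 values (10 genes in 2 groups), 1 array stood apart from the other 3 by Dixon's criterion, where chance gives about 1 in 20. Ogn was at 9.78 in beating replicate 2, against 8.89 to 9.02 in the other beating arrays. Kera was at 1.91 in beating replicate 3 and at 1.86 in non-beating replicate 4, where the other arrays of each group were at 2.03 and at 2.03 to 2.06.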

How the results depend on the processing

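The falls of Dcn and Prelp kept direction and call under all 16 alternatives of the fit. The count of called family genes, 2, was 4 after median centring and 2 to 3 without 1 array. Over all clusters 2054 were called, 866 by the two-sample test of the methods, 1282 with a replicate block and 1007 to 1887 without 1 array; 837 higher and 1617 lower after median centring stand against 940 and 1114. The other family genes, 0 called, gave 1 after median centring or quantile normalization and 0 to 1 without 1 array. The glycosaminoglycan chain genes, 2 called, gave 5 after median centring, 5 with the filter on dim clusters, 4 with the 1.5-fold prefilter, 1 by the two-sample test and 2 to 4 without 1 array. The proteases, 2 called, gave 1 after quantile normalization and with the replicate block, 0 with array weights and by the two-sample test, and 0 to 2 without 1 array. The fibril collagen list, 1 called, gave 2 with the filter on dim clusters, 0 by the two-sample test and 1 to 2 without 1 array. The signalling partners, 7 called, gave 4 with the 1.5-fold prefilter and by the two-sample test. They gave 5 with the replicate block and 5 to 6 without 1 array. With the block Tgfbr3 and Egfr were lost (limma adjusted p = 0.0522 and 0.0623), as were Tgfb2 and Lrp6. The 5 called with the block, 1 higher and 4 lower, thus include lower genes that were not called without it. The causes were not tested.

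Directions turned only for differences near 0: Ogn to -0.047 without beating replicate 2 (up to 0.25 without replicate 1), and Kera to 0.030, 0.019, 0.013 and 0.009 without beating replicate 3 and non-beating replicates 1, 2 and 3. The difference in change of Dcn and Lum was -0.03 without beating replicate 3 and 0.53 without beating replicate 2, and that of Bgn and Aspn was 0.17 and 0.12 without beating replicate 3 and non-beating replicate 1 and -0.15 without beating replicate 1. No pair can pass without 1 array, since the smallest exact p is then 0.0571. Same-numbered samples did not deviate together, with correlations from -0.0123 to 0.0342 over 4 pairs. In the round pool 9 genes, against 8, with Omd the added one, lay below all 8 arrays after median centring or quantile normalization, and Ogn was -1.76 and -0.39 from the non-beating mean. Each gene had 1 row, so averaging rows gave no other value.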

Other observations

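Markers of other tissues in which these proteoglycans are abundant were at low mean levels. The 4 tendon markers averaged 3.86 to 4.10 on the beating arrays, 3.31 to 3.62 on the non-beating arrays and 4.09 in the round pool (mean log2 signal of the list). The list median difference was -0.08, and the higher list mean came from Scx alone. Scx, a transcription factor of tendon cells, was 5.35-fold higher in beating samples, at 7.31 ± 0.33 against 4.89 ± 0.25 (limma adjusted p = 0.000253), while Tnmd (log2 difference -0.26), Thbs4 (-0.16) and Mkx (-0.00) were not called and Tnmd and Thbs4 were at or below the median level of all clusters. The 6 cartilage markers averaged 3.11 to 3.24 and 3.12 to 3.34, with Acan, Comp, Matn1 and Matn3 at or below the median level, and 0 were called (0 also at an unadjusted p under 0.05).

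The 5 smooth muscle and pericyte markers averaged 6.83 to 7.66 on the beating and 6.12 to 6.94 on the non-beating arrays, with Des, the muscle intermediate filament, called higher (log2 difference 5.36). The higher list mean came from Des alone, as Acta2, Myh11, Cnn1 and Rgs5 had differences of -0.20, -0.43, -0.86 and -0.09 and were not called. The 5 endothelial markers averaged 3.69 to 6.34 and 5.05 to 6.36, and the 3 Schwann cell markers 3.86 to 4.11 and 4.17 to 4.45, with 0 called by limma in either list (0 also at an unadjusted p under 0.05).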
